A study of Homo sapiens with 6 samples.

Results

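The genes described here are 43 regulators and structural components of mitosis, taken by symbol from a list that runs from the cyclin-dependent kinase CDK1 and its cyclins to the condensin I subunits. All 43 are in the deposited table of 20289 genes, and all 43 passed the filter on low values. They were compared between ribosome footprint libraries of RKO cells, a human colorectal carcinoma line, that carried either a control short hairpin RNA (shControl, labelled WT, 3 libraries) or a hairpin against TRMT6 (shTRMT6, labelled TRMT6 knockdown, 3 libraries). The libraries are numbered replicates 1 to 3 in each group, and the labels name neither separate cultures nor a time after knockdown. How many hairpins were used, and their sequences, was not stated there either. TRMT6 is the partner subunit of the tRNA m1A58 methyltransferase, and the study asked how its loss changes translation.

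Cells enter mitosis when cyclin B bound to CDK1 is switched on by the phosphatase CDC25C and freed from inhibition by the kinase WEE1. Kinetochores then attach chromosomes to the spindle, and unattached kinetochores hold the cell before anaphase through the checkpoint proteins MAD1, MAD2, BUB1, BUBR1 and MPS1. Once the checkpoint is satisfied, the anaphase-promoting complex (APC/C) with its activator CDC20 marks securin and cyclin B for destruction, separase cuts cohesin, and the cell divides. Most of these genes peak in G2 and mitosis in dividing cells, so their level in a culture follows both the number of cells in that phase and the amount per cell.

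The values are FPKM, footprint reads scaled to gene length and to library depth, so levels can be set beside each other between genes. Between libraries, the calls still depended on further scaling, as given below. A footprint level depends on how much mRNA there is and on how many ribosomes each mRNA carries, and the 2 are not separated here. In such a culture, fewer cells in mitosis and fewer footprints per cell cannot be told apart either. Differences were tested with limma on log2(FPKM + 1) over 11566 genes, and "rose" or "fell" is used only for a Benjamini-Hochberg adjusted p under 0.05. The targeted gene TRMT6 had 57.6, 58.4 and 95.3 FPKM under the control hairpin and 20.7, 21.9 and 24.1 FPKM under the TRMT6 hairpin (limma log2 fold change -1.58 ± 0.27 SE, adjusted p = 0.00301). Of 8 epithelial markers, KRT8, KRT18, CDX2 and EPCAM had a mean of at least 1 FPKM, while CDH1, VIL1 and LGALS4 were at 0 in every library. The 4 summed markers of fibroblasts reached at most 2.82 FPKM and the 3 of endothelium at most 0.54 FPKM in any library. Of the leukocyte markers, PTPRC and CD3E were at 0, and only CD68, a lysosomal gene, had a mean of at least 1 FPKM, so the leukocyte sum (559 to 740 FPKM in control and 575 to 754 FPKM in knockdown libraries) was nearly all CD68. The epithelial sum was 165 to 262 FPKM in control and 168 to 193 FPKM in knockdown libraries.

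Of the 43 mitotic genes, 7 rose and 6 fell after TRMT6 knockdown, while 30 did not pass. FOXM1, BUB1B, MKI67, HMMR, TPX2, ASPM and ANLN rose. PTTG1, MAD2L1, UBE2C, SPC25, CDK1 and CCNA2 fell. Across all tested genes 26.5% were called higher and 9.04% lower. The median log2 fold change of the 43 was 0.005, against 0.39 for all tested genes. By library values alone, the groups did not overlap for 23 members, 11 with every knockdown library above every control library and 12 with every one below; among all tested genes these shares were 37.0% and 14.3%.

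This balance depends on how libraries are scaled. Dividing each library by its median FPKM moved the median change of all tested genes from 0.39 to -0.07 (log2). On that scale 3 members were called higher (FOXM1, BUB1B and MKI67) and 19 lower, beside 13.1% and 19.7% of all tested genes. Quantile normalization gave 5 higher and 16 lower members, beside 13.9% and 14.7% of all tested genes. The 6 members that fell without scaling were all among the 19 called lower with median scaling. FOXM1, PTTG1, MAD2L1, UBE2C, SPC25 and CDK1 kept their call and direction under every scaling, filter, pseudocount, block and threshold setting tried, and without any one library. The other 7 called members each lost their call in at least 1 of these.

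**Figure D1:**
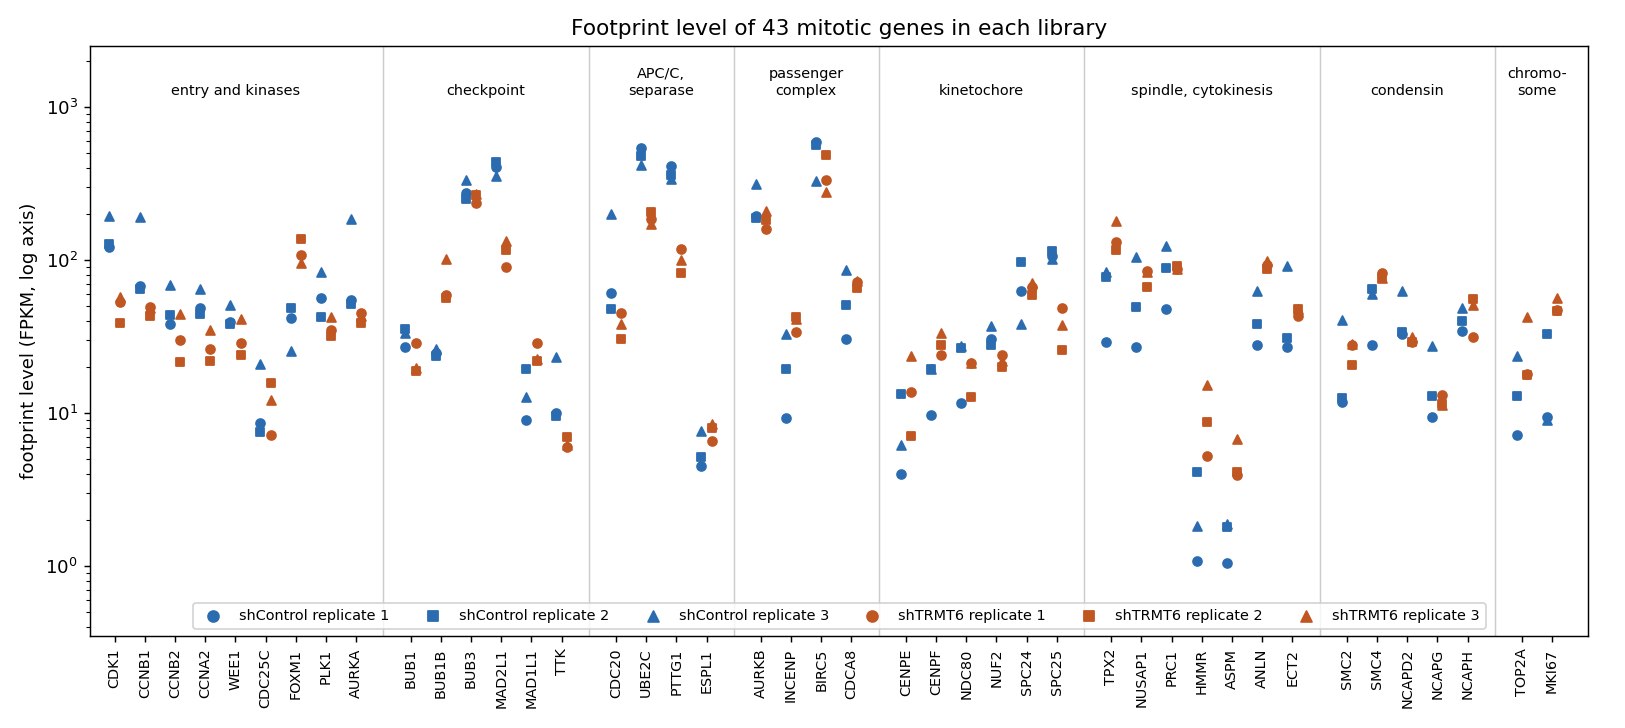
Footprint level in FPKM on a log axis for the 43 mitotic genes, grouped by role, with 1 point per library (blue, shControl; orange, shTRMT6; circle, square and triangle for replicates 1, 2 and 3). MAD2L1, UBE2C and PTTG1 lie above 340 FPKM in every control library and at most at 207 FPKM in every knockdown library, while shControl replicate 3 lies far above the other libraries for CCNB1, AURKA and CDC20.

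One control library stood apart for many of these genes. In shControl replicate 3 a member's level was more than 2 times the mean of shControl replicates 1 and 2 for 12 of 43 members, compared with 9.55% of all tested genes. The 12 were CDC20, AURKA, SMC2, ECT2, CCNB1, NUSAP1, CDC25C, NCAPG, TTK, TOP2A, INCENP and CDCA8. CDC20, the activator of the APC/C, was 3.66 times as high in that library as the mean of the other control libraries, and AURKA, a spindle pole kinase, 3.49 times. Replicate 3 held the highest control value for 29 of 43 members, against 31.9% of all tested genes, and the median ratio was 1.43 for members and 0.862 for all tested genes. In the knockdown group replicate 3 was highest for 23 of 43 members, against 37.6% of all tested genes. MKI67, SPC24, FOXM1 and BIRC5 went the other way in shControl replicate 3, with ratios of 0.426, 0.480, 0.567 and 0.571. Without this library 13 members were called higher and 7 lower, beside 28.3% and 12.3% of all tested genes. The 6 genes added to those that rose were INCENP, CENPF, ECT2, SMC2, CDCA8 and NUSAP1, and the 1 added to those that fell was BIRC5. What set this library apart was not tested.

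**Figure D2:**
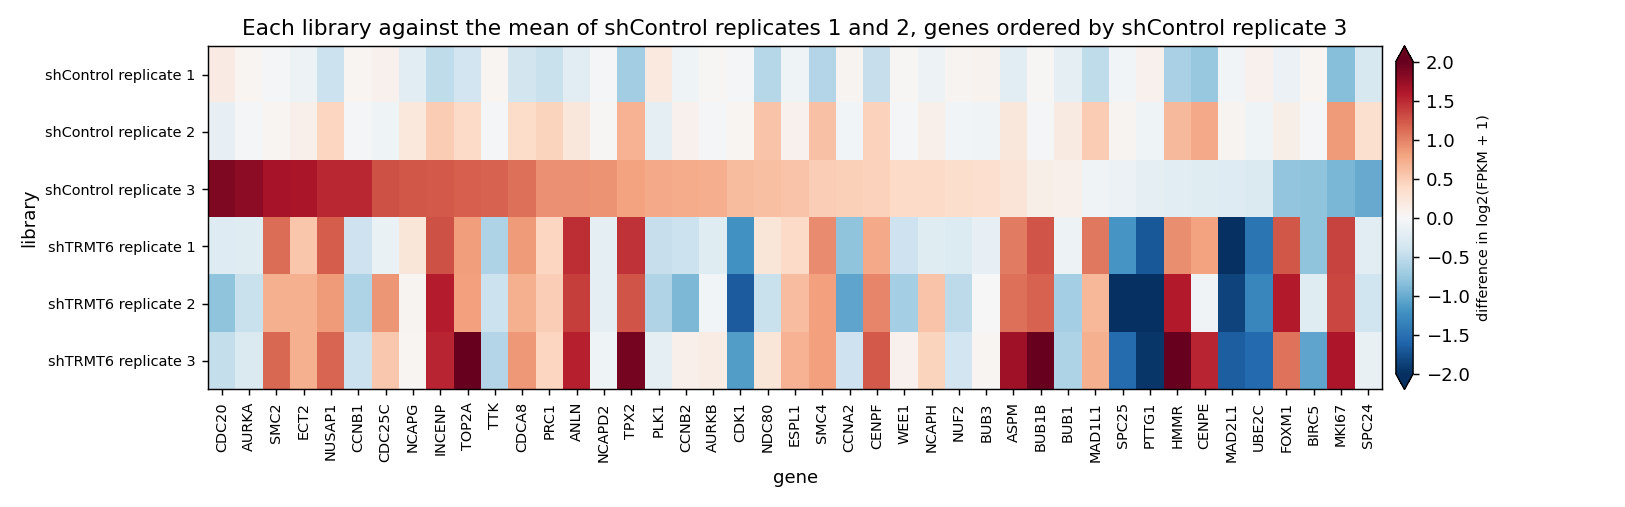
Difference in log2(FPKM + 1) of each library (rows) from the mean of shControl replicates 1 and 2 for each gene (columns), ordered by shControl replicate 3. CDC20, AURKA, SMC2 and ECT2 at the left are highest in shControl replicate 3, while PTTG1, MAD2L1, SPC25 and UBE2C are low in all 3 knockdown libraries and near the other controls in shControl replicate 3.

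The promoters of these genes share letters that the choice of members did not use. Many mitotic genes carry a cell cycle genes homology region (CHR), read by MuvB complexes, and CCAAT boxes, read by NF-Y. RefSeq promoter windows on GRCh38.p14, from 250 bases before to 50 bases after a start site, were matched for 35 of the 43 members (44 windows). The CHR letters TTTGAA, on either strand, were in 29 of the 44 windows (65.9%) and in 15.2% of all 35116 windows. Within the 50 bases before the start, they were in 13 member windows (29.5%) and in 2.28% of all windows. CCAAT on either strand was in 30 member windows (68.2%) and in 34.6% of all windows. Of the matched members, TTTGAA was in a window of 5 of 5 that rose, 3 of 5 that fell and 18 of 25 that did not pass, so members on both sides of the comparison carry it.

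The 80 bases before the start are shown for the members that rose or fell and have TTTGAA within 50 bases of the start, since they set the fallen CDK1 beside 4 genes that rose. Capitals mark TTTGAA and CCAAT on either strand, read 5′ to 3′ on the gene's strand. The first base of the TTTGAA nearest the start lies 13 bases before it in CDK1 and 20 to 29 bases before it in the others. In HMMR a CCAAT and its reverse complement overlap, and in MKI67 the second TTTGAA shares its last base with a reverse complement of CCAAT.
CDK1 (chr10:60778398-60778477, plus strand): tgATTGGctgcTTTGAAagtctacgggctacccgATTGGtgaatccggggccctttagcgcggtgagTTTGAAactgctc
BUB1B (chr15:40160989-40161068, plus strand): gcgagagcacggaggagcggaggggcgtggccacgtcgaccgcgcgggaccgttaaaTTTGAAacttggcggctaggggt
ANLN (chr7:36389782-36389861, plus strand): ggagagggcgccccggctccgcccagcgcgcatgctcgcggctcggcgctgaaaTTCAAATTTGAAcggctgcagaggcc
HMMR (chr5:163460552-163460631, plus strand): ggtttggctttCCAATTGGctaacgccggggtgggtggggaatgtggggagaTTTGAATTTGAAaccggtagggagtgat
MKI67 (chr10:128126424-128126503, minus strand): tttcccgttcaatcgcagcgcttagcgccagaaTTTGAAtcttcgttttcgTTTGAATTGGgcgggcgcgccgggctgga

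Among the genes of mitotic entry, CDK1 and cyclin A2 fell and the transcription factor FOXM1 rose. CDK1, the catalytic subunit of the mitotic kinase (ENSG00000170312, chromosome 10, plus strand), had 122, 127 and 193 FPKM under the control hairpin and 53.3, 38.6 and 57.0 FPKM under the TRMT6 hairpin. The groups did not overlap, and the mean fell from 147 ± 39.6 to 49.6 ± 9.75 FPKM (SD, n = 3 each; limma log2 fold change -1.54 ± 0.27 SE, adjusted p = 0.00317). CCNA2, cyclin A2, had 48.3, 44.5 and 64.9 FPKM against 26.1, 21.8 and 34.6 FPKM (limma log2 fold change -0.92 ± 0.27 SE, adjusted p = 0.0269). It was the 1 gene of the 6 that fell to lose its call in these settings, which happened without shControl replicate 1 (adjusted p = 0.0557), shTRMT6 replicate 1 (0.0883) or shTRMT6 replicate 2 (0.1002), with each library as a share of its FPKM sum (0.0524), and at the stricter threshold of 0.01.

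The B cyclins, which activate CDK1, did not pass. CCNB1 had 67.6, 64.3 and 189 FPKM under the control hairpin and 48.98, 42.8 and 48.8 FPKM under the TRMT6 hairpin. Every knockdown value lay below every control value, but shControl replicate 3 widened the spread (limma log2 fold change -0.99 ± 0.39 SE, adjusted p = 0.0710). CCNB1 passed without shControl replicate 2 (-1.26, limma adjusted p = 0.0375). It was also called lower with median scaling (-1.48, adjusted p = 0.0186) and quantile normalization (-1.28, 0.0275). The same held with the trends of change with level and coding length removed (-1.29, 0.0314). Without shControl replicate 3 its log2 fold change was -0.49 (adjusted p = 0.0660). CCNB2 had 38.4, 43.7 and 68.9 FPKM against 30.2, 21.5 and 44.1 FPKM, and the groups overlapped (log2 fold change -0.65, 95% interval -1.39 to 0.08).

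FOXM1, which activates many G2 and mitotic genes, had 41.5, 48.6 and 25.6 FPKM under the control hairpin and 108, 136 and 96.1 FPKM under the TRMT6 hairpin. Every knockdown library lay above every control library, and the mean rose from 38.6 ± 11.8 to 113 ± 20.7 FPKM (SD, n = 3 each; limma log2 fold change 1.56 ± 0.29 SE, adjusted p = 0.00399). FOXM1 was the only member called higher with the trends of change with level and coding length removed (log2 fold change 1.01, adjusted p = 0.0349).

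The other entry kinases and CDC25C did not pass. PLK1, polo-like kinase 1, had 56.3, 42.2 and 83.6 FPKM against 35.1, 31.7 and 42.5 FPKM, with overlap (log2 fold change -0.68, limma adjusted p = 0.0958), and passed without shControl replicate 2 (-0.91, adjusted p = 0.0398). AURKA had 55.0, 51.7 and 186 FPKM against 44.9, 39.0 and 43.3 FPKM (-0.92, adjusted p = 0.127). Without shControl replicate 3 the change of AURKA was -0.33 (adjusted p = 0.198). WEE1, the kinase that inhibits CDK1, had 39.5, 38.2 and 51.0 FPKM against 28.9, 24 and 41.4 FPKM (-0.46, 95% interval -1.08 to 0.16), with overlap. CDC25C, the opposing phosphatase, had 8.62, 7.51 and 20.8 FPKM against 7.23, 15.7 and 12.1 FPKM (0.005, interval -0.95 to 0.96). With median scaling and with quantile normalization, CCNB2, PLK1, AURKA and WEE1 were called lower, and with trends removed CCNB2, PLK1 and WEE1.

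Within the spindle assembly checkpoint, MAD2L1 fell and BUB1B rose. MAD2L1 encodes MAD2, which binds and holds CDC20. It had 403, 439 and 353 FPKM under the control hairpin and 89.98, 116 and 134 FPKM under the TRMT6 hairpin. The lowest control value was more than 2 times the highest knockdown value (means 398 ± 43.4 and 113 ± 22.1 FPKM, SD, n = 3 each; limma log2 fold change -1.82 ± 0.22 SE, adjusted p = 0.00101). BUB1B encodes BUBR1, which joins MAD2 and CDC20 in the mitotic checkpoint complex. It had 24.6, 23.6 and 26.1 FPKM under the control hairpin and 59.1, 56.0 and 102 FPKM under the TRMT6 hairpin (limma log2 fold change 1.46 ± 0.28 SE, adjusted p = 0.00483). Its control values lay within 23.6 to 26.1 FPKM, and the highest knockdown value was in shTRMT6 replicate 3. Once the trends with level and coding length were taken out, BUB1B had 0.73 and did not pass (adjusted p = 0.0672). A readthrough gene, BUB1B-PAK6, shares its exons in the annotation, so its reads may be divided.

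The other checkpoint genes did not pass. BUB3, the small protein that brings BUB1 and BUBR1 to kinetochores, was abundant and even, at 274, 250.2 and 332 FPKM against 235, 264 and 268 FPKM (log2 fold change -0.15, 95% interval -0.61 to 0.31). The kinase BUB1 had 27.0, 35.3 and 33.1 FPKM against 28.7, 18.8 and 19.7 FPKM (-0.50, interval -1.11 to 0.10). MAD1L1, the kinetochore anchor of MAD2, had 9.06, 19.5 and 12.7 FPKM against 28.9, 21.8 and 22.5 FPKM (0.83, limma adjusted p = 0.0688), without overlap, and passed without shControl replicate 2 (1.10, adjusted p = 0.0241). TTK, the MPS1 kinase that starts checkpoint signalling, had 10.0, 9.53 and 23.3 FPKM against 6.03, 7.02 and 6.15 FPKM (-0.94, adjusted p = 0.0758). With median scaling TTK, BUB1 and BUB3 were called lower, and with quantile normalization or trends removed TTK and BUB1.

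Securin and the APC/C ubiquitin-conjugating enzyme fell strongly. PTTG1, securin, which holds separase inactive until anaphase, had 410.4, 360.5 and 340.4 FPKM under the control hairpin and 118, 82.03 and 99.6 FPKM under the TRMT6 hairpin. It had the largest decrease of the 43 (limma log2 fold change -1.89 ± 0.22 SE, adjusted p = 0.00083), from 370.4 ± 36.1 to 99.7 ± 17.8 FPKM (SD, n = 3 each), 3.71-fold lower. PTTG2, a near-identical copy, had 6.26 to 14.1 FPKM under the control hairpin and 0.00 to 4.06 FPKM under the TRMT6 hairpin, and reads may be divided between them. UBE2C, which starts ubiquitin chains on APC/C substrates, had 541, 479.7 and 419 FPKM against 184, 207 and 172 FPKM (-1.35 ± 0.20 SE, adjusted p = 0.00188). For both genes the lowest control value was more than 2 times the highest knockdown value.

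CDC20 and separase did not pass. CDC20 had 60.4, 47.9 and 198 FPKM under the control hairpin and 44.9, 30.5 and 38.4 FPKM under the TRMT6 hairpin, all below the controls (limma log2 fold change -1.13 ± 0.47 SE, adjusted p = 0.0845). It passed without shControl replicate 2 (-1.52, limma adjusted p = 0.0295) and with median scaling (-1.62, adjusted p = 0.0280). CDC20 was also called lower with quantile normalization (-1.46, 0.0347) and trends removed (-1.55, 0.0310). Without shControl replicate 3 the change was -0.51 (adjusted p = 0.120). ESPL1, separase, was low at 4.52, 5.17 and 7.66 FPKM against 6.60, 7.97 and 8.50 FPKM (0.38, 95% interval -0.33 to 1.09). Of 17 other APC/C subunits and regulators 1 rose, the cullin-like subunit ANAPC2 (0.68, adjusted p = 0.0435), and 0 fell (limma; 2 higher and 3 lower at an unadjusted p under 0.05), and the median change was 0.12. Across all tested genes 26.5% rose and 9.04% fell. With median scaling 0 of the 17 were called higher and 5 lower, beside 13.1% and 19.7% of all tested genes. With trends removed these counts were 0 and 3, beside 13.4% and 13.6%.

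In the chromosomal passenger complex, the Aurora B kinase module that corrects faulty attachments, 0 of 4 genes passed (limma, with 1, INCENP, at an unadjusted p under 0.05). By comparison, 26.5% of all tested genes rose and 9.04% fell. BIRC5, survivin, had the highest control mean of the 43, though not the highest value in shControl replicate 3, at 591, 564 and 329.5 FPKM against 331, 486 and 278 FPKM (log2 fold change -0.43, 95% interval -1.09 to 0.23). shControl replicate 3 was its lowest control value, and without that library it was called lower (-0.70, limma adjusted p = 0.0437). AURKB had 192, 188 and 315 FPKM against 160.3, 182 and 210.1 FPKM, with overlap (-0.29). INCENP, the scaffold, had 9.23, 19.5 and 32.9 FPKM against 34.02, 42.1 and 40.8 FPKM, all above the controls (1.05, adjusted p = 0.0667). CDCA8, borealin, had 30.3, 51.0 and 85.5 FPKM against 71.5, 65.1 and 72.8 FPKM, with overlap (0.44). Without shControl replicate 3 INCENP (1.46, adjusted p = 0.0108) and CDCA8 (0.81, adjusted p = 0.0338) were called higher. With median scaling AURKB (-0.79, limma adjusted p = 0.0457) and BIRC5 (-0.93, adjusted p = 0.0367) were called lower. Of all tested genes, 28.3% were called higher and 12.3% lower without shControl replicate 3, and 13.1% and 19.7% with median scaling.

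At the kinetochore, SPC25 fell and 5 of 6 genes did not pass, where 26.5% of all tested genes rose and 9.04% fell. NDC80, NUF2, SPC24 and SPC25 form 1 complex in equal parts, which binds microtubules. SPC25 had 107, 115 and 102 FPKM under the control hairpin and 48.5, 25.9 and 37.4 FPKM under the TRMT6 hairpin (limma log2 fold change -1.55 ± 0.27 SE, adjusted p = 0.00312). SPC24, its direct partner, had 62.7, 97.4 and 38.4 FPKM against 67.0, 59.2 and 70.8 FPKM, with overlap (0.08, 95% interval -0.64 to 0.81). NUF2 had 30.2, 27.7 and 37.2 FPKM against 23.9, 19.9 and 21.9 FPKM, below the controls in each library (-0.51, adjusted p = 0.138). NUF2 was called lower with median scaling (-0.99, adjusted p = 0.0166), quantile normalization (-1.01, 0.0154) and trends removed (-0.97, 0.0170). NDC80 had 11.7, 26.8 and 27.5 FPKM against 21.2, 12.7 and 21.3 FPKM (-0.19, interval -1.03 to 0.66). In control libraries the 4 genes thus ranged from a mean of 22.0 FPKM for NDC80 to 108 FPKM for SPC25.

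The large kinetochore proteins CENPF and CENPE did not pass. CENPF had 9.65, 19.4 and 19.3 FPKM against 23.9, 27.9 and 33.3 FPKM, without overlap (log2 fold change 0.83, limma adjusted p = 0.0720; 0.98 and adjusted p = 0.0458 without shControl replicate 3). The motor CENPE had 4, 13.4 and 6.15 FPKM against 13.8, 7.05 and 23.4 FPKM, with overlap (0.83, interval -0.27 to 1.94). Of 29 other centromere and kinetochore genes 6 fell and 1 rose, where 9.04% of all tested genes fell and 26.5% rose. Of those that fell ZWILCH had the smallest p (from 58.9 ± 8.49 to 18.3 ± 1.88 FPKM, SD, n = 3 each; -1.63, limma adjusted p = 0.00185), and the 1 that rose was SPDL1, spindly (1.32, adjusted p = 0.00790). The other 5 that fell were CENPW, NSL1, CENPH, PMF1 and SKA1, between -1.65 and -0.88. With median scaling 1 of the 29 was called higher and 10 lower, beside 13.1% and 19.7% of all tested genes. ZWILCH and SPDL1 act together in the outer corona of the kinetochore, as part of and adaptor to the RZZ complex.

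Of 7 genes of the spindle and of cytokinesis 4 rose, TPX2, HMMR, ASPM and ANLN, and 0 fell. Across all tested genes 26.5% rose and 9.04% fell. All 4 have over 2000 nt of coding sequence, where 39.8% of all tested genes rose and 1.15% fell. With trends removed 0 of the 7 were called higher and 0 lower, beside 13.4% and 13.6% of all tested genes. TPX2, which activates Aurora A on microtubules, had 29.03, 77.0 and 83.9 FPKM under the control hairpin and 130.2, 115 and 181 FPKM under the TRMT6 hairpin (limma log2 fold change 1.27 ± 0.39 SE, adjusted p = 0.0302). ANLN, anillin of the cleavage furrow, had 27.98, 38.4 and 62.6 FPKM against 92.6, 86.8 and 97.8 FPKM (1.16 ± 0.30 SE, adjusted p = 0.0151). HMMR, a spindle-associated hyaluronan receptor, had 1.08, 4.13 and 1.83 FPKM against 5.24, 8.77 and 15.3 FPKM (1.68 ± 0.47 SE, adjusted p = 0.0206). ASPM, a spindle pole protein, had 1.05, 1.81 and 1.88 FPKM against 3.91, 4.14 and 6.77 FPKM (1.19 ± 0.36 SE, adjusted p = 0.0297). In all 4 the groups did not overlap and shTRMT6 replicate 3 was highest. HMMR and ASPM are low, and the HMMR control values rest on an estimated 8 to 23 reads.

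None of these 4 calls survived every left-out library. Without shTRMT6 replicate 3 the adjusted p-values were 0.112 for TPX2, 0.0575 for ANLN, 0.0855 for HMMR and 0.119 for ASPM. Without shControl replicate 1 they were 0.0676, 0.0506, 0.0688 and 0.0926. Without shTRMT6 replicate 1 TPX2 (0.0701), ANLN (0.0523) and ASPM (0.0584) lost their call, and without shTRMT6 replicate 2 TPX2 (0.0568), HMMR (0.0586) and ASPM (0.0575). With median scaling the 4 had log2 fold changes of 0.67 to 1.30 and did not pass.

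PRC1, NUSAP1 and ECT2 did not pass. PRC1, which bundles the central spindle, had 47.6, 88.5 and 123.5 FPKM against 87.8, 91.3 and 87.4 FPKM (log2 fold change 0.14). NUSAP1, a microtubule bundling protein, had 26.8, 49.03 and 105 FPKM against 84.9, 66.6 and 83.1 FPKM (0.57), and ECT2, the RhoA exchange factor of cytokinesis, had 26.8, 30.7 and 91.1 FPKM against 42.8, 47.8 and 47.8 FPKM (0.12). For each gene shControl replicate 3 alone lay above all knockdown libraries. Without it NUSAP1 (1.08, limma adjusted p = 0.0183) and ECT2 (0.66, adjusted p = 0.0317) were called higher. In the annotation PRC1 and NUSAP1 each overlap exons of another protein-coding gene on the same strand (AC068831.7 and AC087721.2), so their reads may be divided. Of 29 other spindle and cytokinesis genes 4 fell and 3 rose, where 9.04% of all tested genes fell and 26.5% rose. HAUS1, an augmin subunit, had the smallest p of those that fell (from 233 ± 49.7 to 111 ± 6.32 FPKM, SD, n = 3 each; -1.04, limma adjusted p = 0.00813), and TUBGCP6, of the gamma-tubulin ring complex, of those that rose (1.68, adjusted p = 0.00668). TUBG1, TRIP13 and RCC1 also fell, and TUBGCP5 and NUMA1 also rose. With median scaling 2 of the 29 were called higher and 12 lower, beside 13.1% and 19.7% of all tested genes. With trends removed these counts were 0 and 11, beside 13.4% and 13.6%.

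The condensin I complex, which compacts mitotic chromosomes, had 0 of 5 genes past the threshold (limma, also 0 at an unadjusted p under 0.05 in either direction). By comparison, 26.5% of all tested genes rose and 9.04% fell. All 5 have over 2000 nt of coding sequence, where 39.8% of all tested genes rose and 1.15% fell. The ATPase core SMC4 had 27.9, 64.3 and 60.3 FPKM under the control hairpin and 82.5, 76.0 and 75.8 FPKM under the TRMT6 hairpin, all above the controls (log2 fold change 0.70, limma adjusted p = 0.116). Its partner SMC2 had 11.8, 12.46 and 40.3 FPKM against 27.6, 20.5 and 28.1 FPKM (0.44), and without shControl replicate 3 it was called higher (0.99, adjusted p = 0.0181). The kleisin NCAPH had 34.5, 40.0 and 48.7 FPKM against 31.4, 55.9 and 50.7 FPKM (0.13, 95% interval -0.51 to 0.77). The HEAT-repeat subunit NCAPD2 had 32.7, 33.6 and 62.8 FPKM against 29.2, 28.9 and 31.2 FPKM, all below the controls (-0.45), and the other, NCAPG, had 9.35, 12.9 and 27.4 FPKM against 13.2, 11.4 and 11.3 FPKM, with overlap (-0.30). The subunits assemble in equal parts, and their control means ran from 16.6 ± 9.53 FPKM for NCAPG to 50.8 ± 19.96 FPKM for SMC4. Summed over the 5 genes, condensin reached 173 ± 62.2 FPKM under the control hairpin, where libraries ranged widely, and 191 ± 6.76 FPKM under the TRMT6 hairpin (SD, n = 3 each). With median scaling NCAPD2 was called lower (-0.94, limma adjusted p = 0.0401), and the signs of SMC2 and NCAPH turned. NCAPD2 was also called lower with quantile normalization (-0.90, adjusted p = 0.0399). With trends removed NCAPD2 (-1.26, limma adjusted p = 0.0108) and NCAPG (-1.10, adjusted p = 0.0403) were called lower and 0 of the 5 higher. Of all tested genes, 13.1% were called higher and 19.7% lower with median scaling, and 13.4% and 13.6% with trends removed.

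Of 17 genes of condensin II and cohesin 3 rose and 0 fell (limma; 5 higher at an unadjusted p under 0.05). Across all tested genes 26.5% rose and 9.04% fell, and of those over 2000 nt 39.8% and 1.15%. The median coding length of the 17 was 3651 nt. SMC3, the cohesin ATPase, had the smallest p (from 27.7 ± 8.64 to 56.1 ± 7.65 FPKM, SD, n = 3 each; limma 1.03 on the log2 scale, adjusted p = 0.0224), and PDS5B and the condensin II kleisin NCAPH2 also rose. With median scaling 0 of the 17 were called higher and 1 lower, beside 13.1% and 19.7% of all tested genes. With trends removed these counts were 0 and 2, beside 13.4% and 13.6%.

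Among proteins of the mitotic chromosome, MKI67 rose. It encodes Ki-67, the proliferation marker that coats mitotic chromosomes, and had 9.48, 32.9 and 9.03 FPKM under the control hairpin and 46.9, 46.7 and 56.6 FPKM under the TRMT6 hairpin (limma log2 fold change 1.74 ± 0.44 SE, adjusted p = 0.0144), the largest upward change of the 43 on unscaled log2(FPKM + 1). HMMR was above it with median scaling (1.30 against 1.26), and FOXM1 with trends removed (1.01 against 0.73). In the ratio of mean FPKM, HMMR (4.16), ASPM (3.13), FOXM1 (2.94) and BUB1B (2.923) lay above MKI67 (2.921). For MKI67 shControl replicate 2 was more than 3 times the other controls and still below all knockdown libraries. The call of MKI67 ended without shControl replicate 1 (adjusted p = 0.0502) or shTRMT6 replicate 3 (0.0546). TOP2A, topoisomerase II alpha, had 7.15, 12.9 and 23.4 FPKM against 18.1, 17.8 and 42.7 FPKM, with overlap (0.83, 95% interval -0.20 to 1.87).

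The members that rose and fell differed in coding length. Every gene that fell had a coding sequence of at most 1296 nt, and every gene that rose had at least 2175 nt. Of 9 members under 1000 nt 5 fell (PTTG1, MAD2L1, UBE2C, SPC25 and CDK1) and 0 rose (limma, also 0 at an unadjusted p under 0.05), with a median log2 fold change of -1.35. Among all tested genes of that length 20.4% fell and 14.3% rose, with a median of -0.05. Of 13 members of 1000 to 2000 nt 1 fell (CCNA2) and 0 rose (0 higher and 4 lower at an unadjusted p under 0.05), with a median of -0.51, where 5.84% of all tested genes fell, 26.4% rose and the median was 0.37. Of 21 members over 2000 nt 7 rose and 0 fell (1, TTK, at an unadjusted p under 0.05), with a median of 0.83, where 39.8% of all tested genes rose, 1.15% fell and the median was 0.79.

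The medians of the short and middle-length members thus lay below those of all tested genes of the same length, and that of the long members lay near it. These shares were not tested against each other. Spearman's rho of log2 fold change with coding length was 0.65 over the 43 members and 0.37 over 11410 tested genes, a description across genes that share the same 6 libraries. The change also varied with level, and its rho with mean FPKM was -0.38 over members and -0.30 over all tested genes. The G or C content at the codon's last position was lower in members (median 43.8%) than over all tested genes (58.3%), and its rho with the change was -0.08 over members. With the trends with level and coding length removed, 16 members were called lower and 1 higher, beside 13.6% and 13.4% of all tested genes. On that scale the median change was -0.98 for members under 1000 nt, -1.02 for those of 1000 to 2000 nt and -0.07 for those over 2000 nt.

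**Figure D3:**
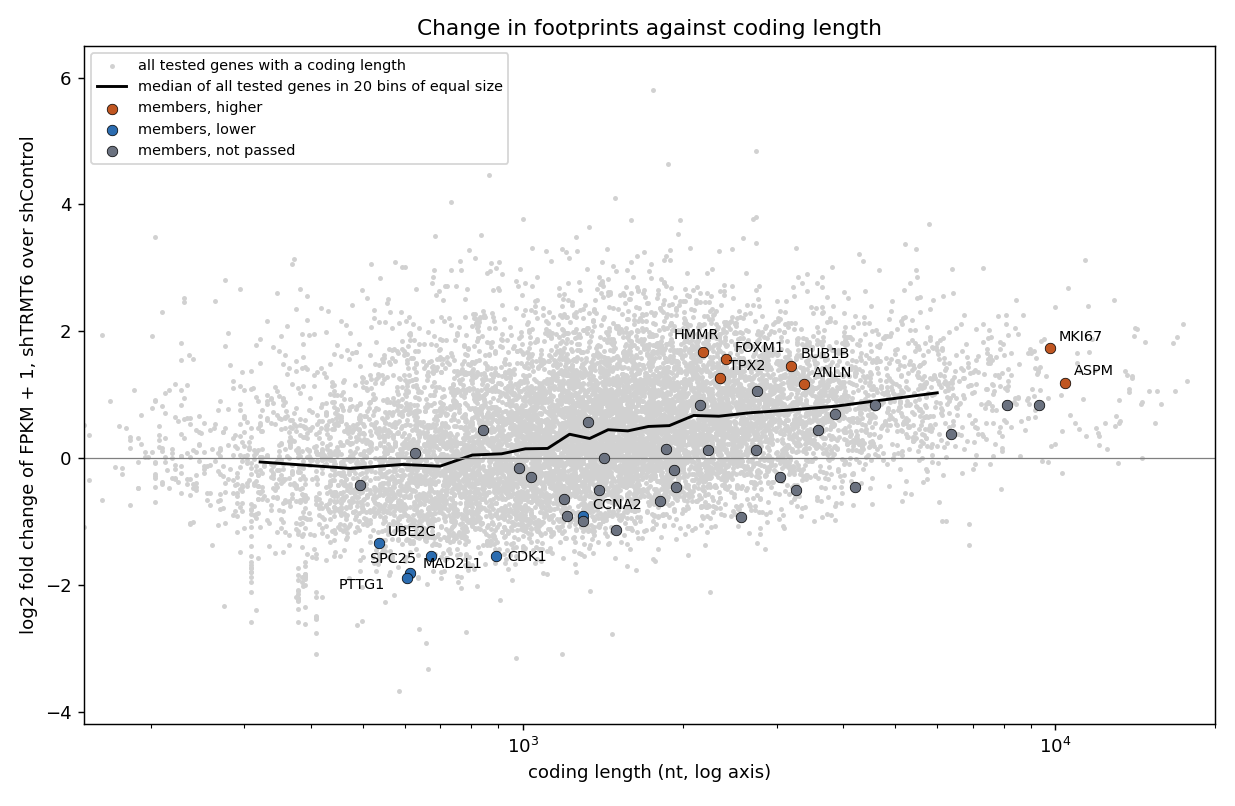
Log2 fold change of FPKM + 1 against coding length on a log axis for 11410 tested genes (grey; 15 lie outside the axes) and the 43 members (blue, lower; orange, higher; dark grey, not passed), with the median of all tested genes in 20 bins of equal size (line). The 5 members under 1000 nt that fell lie at or below -1.35, and the 7 that rose lie at or beyond 2175 nt. With median scaling only FOXM1, BUB1B and MKI67 of those 7 were called.

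Ratios of partner genes within 1 library do not depend on scaling between libraries, apart from the pseudocount, and were compared for 13 pairs of 1 complex or step. In 5 pairs the groups did not overlap (exact permutation p = 0.1 each, two-sided, the smallest that 3 against 3 allows, and 0.26 adjusted over the 13). For single genes, the groups did not overlap in 37.0% (knockdown above) and 14.3% (knockdown below) of all tested genes. The share of gene pairs at large that separate was not computed. All of the 5 pairs but AURKB to INCENP hold a gene that rose or fell, so they are not separate evidence. The log2 ratio of MAD2L1 to MAD1L1 went from 4.81 ± 0.46 to 2.17 ± 0.49 (SD, n = 3 each). That of PTTG1, the inhibitor, to ESPL1, the protease it inhibits, went from 5.80 ± 0.46 to 3.53 ± 0.39. That of BUB3 to BUB1B went from 3.47 ± 0.14 to 1.86 ± 0.43, and that of AURKB to INCENP from 3.55 ± 0.60 to 2.21 ± 0.12. In the Ndc80 complex the log2 ratio of SPC24 to SPC25 was -0.79 ± 0.57 in shControl and 0.84 ± 0.36 in shTRMT6, so the partner with more footprints per length differed between the groups. In 4 of these 5 pairs the gene with the falling share has much the shorter coding sequence, while SPC24 and SPC25 are of like length (627 and 672 nt).

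The other 8 ratios overlapped between the groups. CDK1 to CCNB1 was 0.84 and 0.98 in shControl replicates 1 and 2 and 0.03 in replicate 3, and -0.15 to 0.22 in the knockdown libraries. CDC20 to UBE2C was -3.14 and -3.30 in shControl replicates 1 and 2 but -1.07 in replicate 3, while the knockdown libraries had -2.72 to -2.01. Within condensin, SMC2 to SMC4, NCAPH to NCAPD2 and NCAPG to NCAPD2 differed by -0.26, 0.58 and 0.15.

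**Figure D4:**
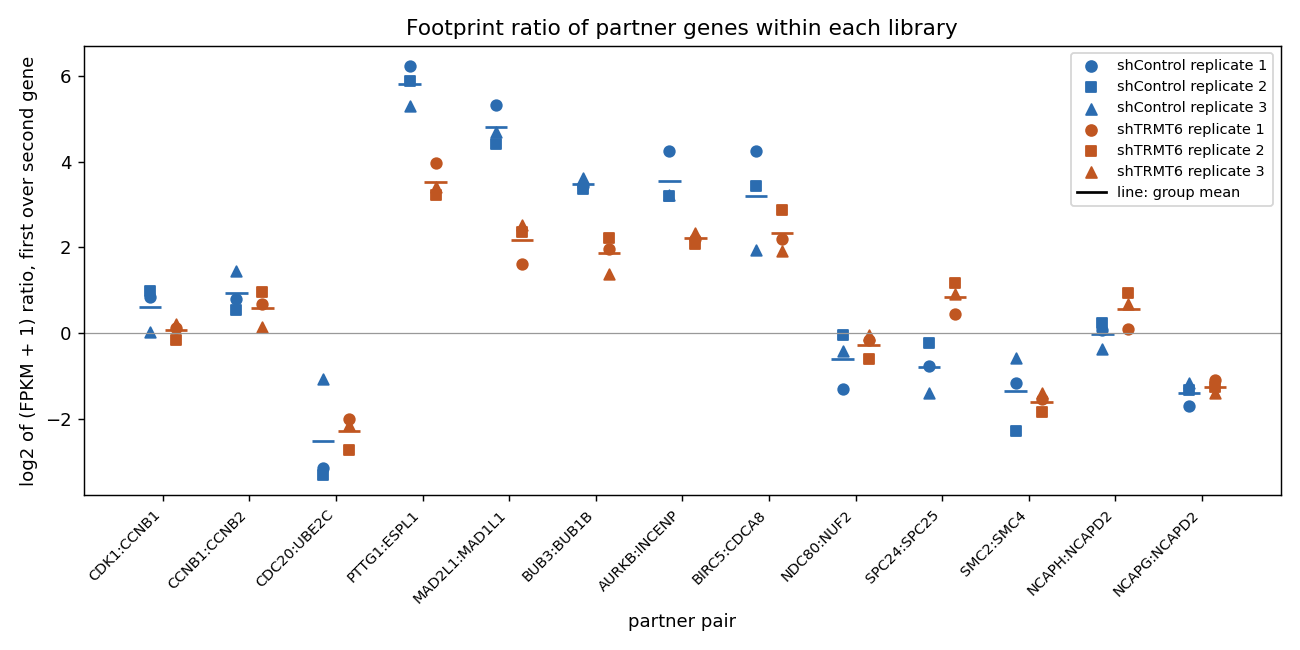
Log2 ratio of FPKM + 1 of the first to the second gene of 13 partner pairs in each library (blue, shControl; orange, shTRMT6; lines, group means). The groups are separate for PTTG1 to ESPL1, MAD2L1 to MAD1L1, BUB3 to BUB1B, AURKB to INCENP and SPC24 to SPC25, and overlap for the other 8.

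Among 20 other genes of entry control 4 fell and 2 rose, where 9.04% of all tested genes fell and 26.5% rose. CKS2, the small CDK1-binding subunit, had the smallest p of those that fell (from 2759.6 ± 713 to 1309.9 ± 71.0 FPKM, SD, n = 3 each; limma -1.04 on the log2 scale, adjusted p = 0.00978), and the MuvB subunit LIN37 of those that rose (1.17, adjusted p = 0.0108). Another MuvB subunit, LIN54, fell (-0.94, limma adjusted p = 0.0364), as did CDKN3 and MNAT1, and ENSA also rose. With median scaling 0 of the 20 were called higher and 7 lower, beside 13.1% and 19.7% of all tested genes. Of 16 G1 cyclins, CDKs and CDK inhibitors 2 rose, E2F4 (1.37, adjusted p = 0.00552) and CCND1, and 2 fell, CDK2 (-0.81, adjusted p = 0.0209) and CCND3. Over the 128 cell-cycle genes of these 6 further lists 12 rose and 16 fell (median 0.12 on the log2 scale), beside 26.5% and 9.04% of all tested genes. With median scaling 4 were called higher and 39 lower, beside 13.1% and 19.7% of all tested genes.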

How the data were processed

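Ribosome footprints of 6 RKO libraries were deposited as a table of FPKM per gene, named FPKM per the file headers. Reads were processed with fastp, STAR and RSEM, per the submitters' processing notes. Their versions, the genome build, the annotation and any use of strand: not given in the sources used here. Columns named NC were read as control and SH as knockdown, by replicate number; 0 columns stayed unassigned. Depth was estimated from the steps of low FPKM values, of which 71.0 to 77.4% were whole reads within 0.1, giving about 2591000 to 4082000 reads per library; this is too few whole values for a count test.

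The 11566 genes that reached 1 FPKM in 3 or more libraries were tested on log2(FPKM + 1) with limma 3.58.1 in R 4.3.3, with no block, and Benjamini-Hochberg adjustment over all of them. A fold change on this scale understates the change of low genes. The labels name no separate cultures, so p-values measure the spread between these libraries only. Coding lengths, positions and overlaps come from GENCODE release 29, and promoters from RefSeq on GRCh38.p14. "Median scaling" divides each library by its median FPKM; "trends removed" takes out splines (5 degrees of freedom) of level and coding length. Members and lists were chosen with earlier results of these data known. All 43 members are named, and from each further list the gene with the smallest p in each direction, with others only to complete small counts. On simulated data for 11566 genes, 83 of 100 genes changed 4-fold and 9 of 100 changed 2-fold were recovered, with 4 false of 96 calls. Only these genes were changed there, all drawn from above the median level, with no trend with level or coding length. The data held many more calls (3069 higher and 1046 lower), so these rates do not carry over to the comparison made here.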

Additional observations from a re-analysis of the deposited data

How the results depend on the processing

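At an adjusted p under 0.01, 2 members were called higher, both over 2000 nt, and 5 lower. This threshold gave 4 higher and 7 lower of the 128 further genes and 1421 higher and 473 lower of all tested genes. At an adjusted p under 0.1, 10 members were called higher and 10 lower (10 and 1 over 2000 nt), beside 3880 higher and 1381 lower of all tested genes. Median scaling gave 3 higher and 19 lower members (3 higher and 3 lower over 2000 nt), 4 and 39 of the further genes, and 1520 and 2275 of all tested genes. Quantile normalization gave 5 higher and 16 lower members (5 and 3 over 2000 nt), 7 higher and 29 lower of the further genes, and 1602 and 1700 of all tested genes. With trends removed there were 1 higher and 16 lower members (1 and 4 over 2000 nt), 8 and 31 of the further genes, and 1525 and 1547 of all tested genes.

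The log2 fold change turned negative with median scaling for CDC25C (-0.45), ESPL1 (-0.053), CDCA8 (-0.045), SPC24 (-0.41), PRC1 (-0.35), ECT2 (-0.37), SMC2 (-0.033) and NCAPH (-0.35). With quantile normalization it turned for CDC25C (-0.66), BUB3 (to 0.029), ESPL1 (-0.34), SPC24 (-0.21), PRC1 (-0.10), ECT2 (-0.27), SMC2 (-0.10) and NCAPH (-0.27). With trends removed it turned for CDC25C (-0.57), BUB3 (to 0.057), ESPL1 (-0.72), CENPE (-0.26), CENPF (-0.17), PRC1 (-0.26), ASPM (-0.066), ECT2 (-0.56), SMC2 (-0.34), NCAPH (-0.50) and TOP2A (-0.024). Of these only ASPM had passed. The cause was not tested.

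Leaving out 1 library at a time gave 2 to 13 higher and 5 to 9 lower members, 0 to 1 higher under 1000 nt, 2 to 11 higher over 2000 nt, 6 to 20 higher and 8 to 21 lower further genes, and 1828 to 3270 higher and 587 to 1428 lower of all tested genes. The sign turned within these ranges: CDC25C -0.25 to 0.43, NDC80 -0.57 to 0.043, SPC24 -0.25 to 0.41, PRC1 -0.23 to 0.45, ECT2 -0.20 to 0.66, NCAPG -0.62 to 0.11 and NCAPH -0.027 to 0.38. Among log2 partner ratios it turned for CDC20 to UBE2C (-0.18 to 0.93), NDC80 to NUF2 (-0.036 to 0.59), NCAPG to NCAPD2 (-0.0065 to 0.26) and SMC2 to SMC4 (-0.73 to 0.13).

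With the replicate number as a block, 8 members were called higher and 8 lower (3146 and 1065 of all tested genes), adding INCENP to those higher and CCNB1 and CDC20 to those lower. Deviations of same-numbered libraries correlated at 0.01, 0.01 and 0.10 across genes, and not every library correlated best with its own number, so the numbers were not taken as pairs. Depth limits HMMR most, with an estimated 8 to 86 reads per library.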
